A study of Saccharomyces cerevisiae with 8 samples.

Results

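The wild-type histone strains of the series, which served as the reference for its histone mutants, were represented by 3 of the 8 RNA-seq libraries: 1 of WT H3 and 2 of WT H4. They were chosen by their labels, and not by any measured value. Both strains were derived from JDY86, a MATa Saccharomyces cerevisiae strain with the alleles his3Δ200, leu2Δ0, trp1Δ63, ura3Δ0, met15Δ0 and can1::MFA1pr-HIS3, and with an allele printed as K2Δ0 and read here as a deletion of LYS2. In both, the locus hht1-hhf1 was replaced by NatMX4, and the locus hht2-hhf2 by the synthetic cassette [HHTS-HHFS] with URA3. The study uses that bracket for the mutated histone, H3 or H4, which in these strains carried no mutation. The mutants H4K16Q, H4H18A and H3E50A, the remaining 5 libraries, shared all of these alleles. Each culture was grown in YPD, a rich glucose medium, at 30 °C for 16 h, a time that the study placed in late log phase, before stationary phase. Replicates were prepared independently, and WT H3 had 1 library only.

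A yeast culture in glucose medium first ferments glucose to ethanol, while glucose represses the genes for respiration, gluconeogenesis and the use of other carbon sources. Once glucose is exhausted, at the diauxic shift, these genes are derepressed, together with genes of the general stress response under the transcription factors Msn2 and Msn4. Genes for ribosome synthesis, which are transcribed at high rates in fast growth, are then repressed. Genes of this kind are described for each wild-type library, and the cause of their levels was not tested.

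The total counts were 1561683 in WT H3, 4296089 in WT H4 replicate 1 and 1196115 in WT H4 replicate 2. Features named after YLR154 with a suffix, which lie in the ribosomal RNA gene region, held 33.9%, 0.990% and 21.2% of these counts, and YGL088W held 1.07%, 22.9% and 1.14%. These 8 features were removed, which left 6592 features, and the counts were scaled to CPM, the count of a feature per 1000000 counts, by the trimmed mean of M-values (TMM). A mean of at least 50 CPM over the 3 libraries was reached by 3552 genes, and 2425 of these had 50 CPM in every library. At that level a gene had 49.7, 154.4 and 50.2 counts in WT H3, WT H4 replicate 1 and WT H4 replicate 2. The measure of variation was the range, the highest minus the lowest log2 CPM of a gene. Counts, levels and shares of the 3 libraries are given in the order WT H3, WT H4 replicate 1 and WT H4 replicate 2. Medians of a gene list are medians of log2 ratios, first of WT H4 replicate 1 over WT H4 replicate 2, then of WT H4 replicate 1 over WT H3 and, where another follows, of WT H4 replicate 2 over WT H3. The 28 mitochondrially encoded features were listed at 0 in all 3 libraries, and are therefore not described.

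The strain labels were checked against the counts. LEU2 and TRP1 were at 0 in all 3 libraries, LYS2 had 0, 3 and 0 counts in WT H3, WT H4 replicate 1 and WT H4 replicate 2, and MET17, the current name of MET15, had 0, 1 and 0. HIS3 and URA3, which the strain carries on cassettes, had 234, 103 and 246 CPM and 136, 50.2 and 178 CPM, respectively. The a-specific genes were present: STE2, the receptor of α-factor, had 404, 115 and 406 CPM, STE6, the a-factor exporter, 541, 212 and 616 CPM, and MFA2, which encodes a-factor, 142, 109 and 169 CPM. Of the α-specific genes, MF(ALPHA)1 had 6, 32 and 0 counts and STE3 had 12, 30 and 6, whereas SAG1, the α-agglutinin, was not absent, at 71.4, 61.8 and 53.8 CPM. The marker deletions and the a-specific genes were thus as the label gives them. SAG1 was not, and the replaced histone loci, described with the histones, also held counts. CAN1, disrupted in the strain, had 12, 0 and 15 counts.

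The libraries shared the 16 h label but not their profile, and WT H4 replicate 1 stood apart. Cytoplasmic ribosomal protein genes, a sign of fast growth, took 7.32% of the counts left after the removal in WT H3 and 7.50% in WT H4 replicate 2, but 1.05% in WT H4 replicate 1. Genes of the glyoxylate cycle and gluconeogenesis, which glucose represses, took 0.13% and 0.09% in WT H3 and WT H4 replicate 2, and 2.56% in WT H4 replicate 1. That library also had the highest YGL088W share, the lowest ribosomal RNA region share and the most counts. The part of these in its differences was not tested, except by thinning all libraries to the same depth. The stable and variable genes, defined further on, then numbered 636 and 852 in place of 643 and 859. Of the 636 and 852, 559 and 811 were the same genes as without thinning. The values are therefore described by library, and not as 1 late log transcriptome, and the counts of stable and variable genes, the most abundant genes and the test of the strains are also given without WT H4 replicate 1. For gene lists, the comparison of WT H4 replicate 2 with WT H3, plotted for every list, leaves it out.

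The native histone H3 and H4 loci were replaced in the strain, yet reads were assigned to some of them. HHT1 had 141, 237 and 87.7 CPM, HHT2 110, 144 and 43.8 CPM, and HHF1 18.1, 65.4 and 21.9 CPM, in the order WT H3, WT H4 replicate 1 and WT H4 replicate 2, while HHF2 was at 0 throughout. Whether these reads came from the synthetic genes was not tested. The H2A and H2B genes spanned both ends of the variation: HTA1 had 436, 334 and 365 CPM, a range of 0.38, whereas HTB2 had 448, 90.7 and 431 CPM, a range of 2.29. HTA1 thus overlapped closely in all 3 libraries, whereas HTB2 and HTA2, at 169, 27.8 and 114 CPM, were lowest in WT H4 replicate 1. Of the 7 histone genes that passed 50 CPM on average, 2 were stable and 2 variable by the limits given further on, and of the 11 genes of the mating type list that passed 3 were stable and 1 variable. Of all 3552 genes, 18.1% were stable and 24.2% variable, and 2 of 7 is near these shares.

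Levels were compared between genes per coding length, as TPM, the share of a feature per 1000000 after division by coding length. The most abundant feature in every library was CCW12, a mannoprotein of the cell wall (YLR110C, chrXII:369697-370098), with 32857 TPM in WT H3, 67518 TPM in WT H4 replicate 1 and 19147 TPM in WT H4 replicate 2. The mean was 39841 ± 24930 TPM (SD, n = 3). The cell wall proteins SED1 and CWP2 ranked 4 and 2 in WT H3, 12 and 36 in WT H4 replicate 1, and 5 and 7 in WT H4 replicate 2. CWP2 had 20701, 2688 and 8799 TPM, so that it was highest in WT H3.

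Of the 20 features with the highest mean TPM, 8 encoded enzymes of glycolysis or alcohol formation. TDH3, the major glyceraldehyde-3-phosphate dehydrogenase, had 20104 TPM in WT H3, 12984 TPM in WT H4 replicate 1 and 14891 TPM in WT H4 replicate 2, a mean of 15993 ± 3686 TPM (SD, n = 3). ADH1, which reduces acetaldehyde to ethanol, had 11585, 5500 and 8622 TPM. Both were thus among the steadier of the abundant genes. PDC1, the pyruvate decarboxylase that commits pyruvate to ethanol, had 13960, 2431 and 11925 TPM, and the aldolase FBA1 had 16834, 2817 and 14650 TPM. These were lowest in WT H4 replicate 1, which stood below both other libraries.

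Pairs of isoenzymes went opposite ways. ENO2, the enolase of fermenting cells, had 10507 TPM in WT H3, 648 TPM in WT H4 replicate 1 and 8451 TPM in WT H4 replicate 2, whereas ENO1 had 4193, 7682 and 2426 TPM. HXK2, the hexokinase of cells on glucose, had 1357, 37.6 and 980 CPM. It was 26.1-fold lower in WT H4 replicate 1 than in WT H4 replicate 2 and 36.1-fold lower than in WT H3. GLK1, the glucokinase that glucose represses, had 1518, 10316 and 1161 TPM, and was 12.2-fold (95% counting interval 11.5 to 12.9) and 8.05-fold (7.71 to 8.42) higher in WT H4 replicate 1. TDH1, the glyceraldehyde-3-phosphate dehydrogenase of starved cells, had 6281, 16193 and 3050 TPM. The counting intervals do not cover variation between cultures, and because the enolase and TDH genes are near-identical copies, the division of reads within each pair is uncertain.

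**Figure D1:**
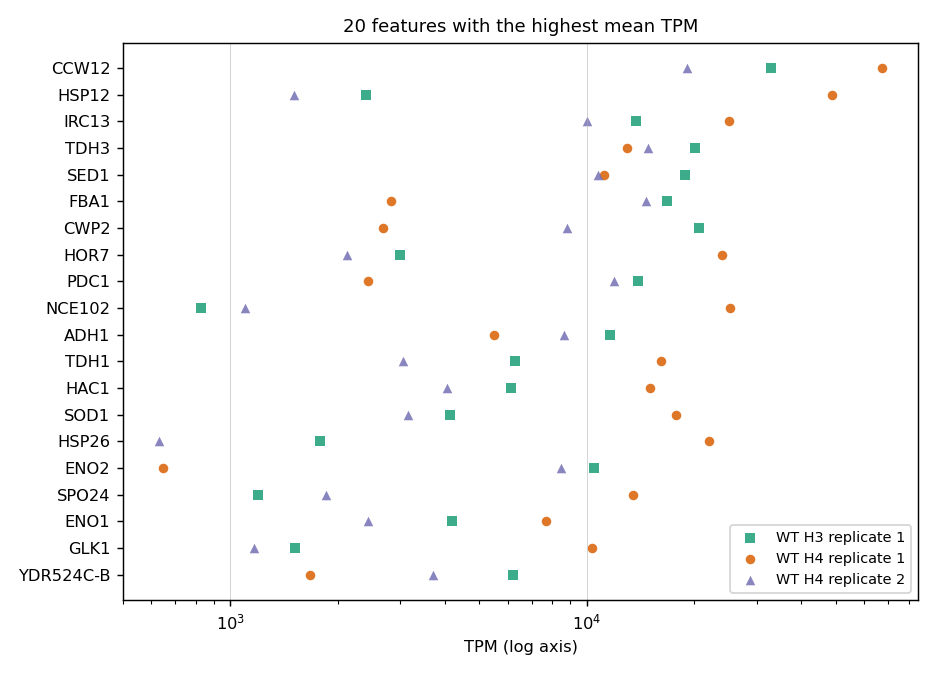
TPM (log axis) of the 20 features with the highest mean TPM, 1 row a feature and 1 symbol a library. CCW12 leads every library, while HSP12, NCE102 and HSP26 lie far to the right in WT H4 replicate 1 and ENO2, at 648 TPM, far to the left.

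The remaining abundant features were mostly stress or small membrane proteins. HSP12, a small membrane-protecting heat shock protein, had 2407 TPM in WT H3, 48798 TPM in WT H4 replicate 1 and 1513 TPM in WT H4 replicate 2, and ranked 41, 2 and 97. NCE102, a protein of the eisosome, had 827, 25157 and 1097 TPM, and HSP26, a small heat shock chaperone, had 1782, 22106 and 631 TPM. These 3 stood high in WT H4 replicate 1 only, as NCE102 ranked 194 and 147 and HSP26 75 and 263 in WT H3 and WT H4 replicate 2. SOD1, the copper-zinc superoxide dismutase, had 4128, 17821 and 3156 TPM and ranked 17, 7 and 22. HAC1, the transcription factor of the unfolded protein response, was among the 12 highest features of each library, with 6115, 15053 and 4064 TPM. IRC13 ranked 7, 4 and 6, with 13715, 25086 and 10013 TPM, but 78 of its bases overlap the snoRNA gene SNR17A on the same strand, so that reads of this snoRNA could be counted in it.

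The top of the ranking was not the same set in each library. Of the 20 features with the highest mean TPM, 13 remained when WT H4 replicate 1 was left out. Of the 20 highest of each library, WT H4 replicate 2 and WT H3 shared 15, WT H4 replicate 1 and WT H3 shared 9, and both WT H4 replicates shared 6. Of the 100 highest, the same pairs shared 84, 27 and 26. Cytoplasmic ribosomal protein genes made up 46 of the 100 highest in WT H3 and 49 in WT H4 replicate 2, but 1 in WT H4 replicate 1. The transcriptome of WT H4 replicate 1 was also the most concentrated, since 87 genes supplied 50% of its TPM, against 212 in WT H3 and 312 in WT H4 replicate 2. The 20 highest features of each library held 35.8%, 21.1% and 14.9% of the TPM in WT H4 replicate 1, WT H3 and WT H4 replicate 2, respectively.

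Over the 3552 genes, the median range was 1.15 on the log2 scale, with 10% of genes under 0.35 and 10% over 3.04. Genes with a range of at most 0.5 were called stable, and numbered 643 (18.1% of the genes). Genes with a range of at least 2, a 4-fold difference, were called variable, and numbered 859 (24.2%). The limits cut through a continuous distribution: MMS22 with 0.49999 and RAD2 with 0.5006 lay on either side of the first, and RCR2 with 2.0002 and SSO2 with 1.998 on either side of the second. Variable genes were more frequent among abundant genes: they were 15.9% of genes with a mean of 50 to 100 CPM and 48.1% of those of at least 300 CPM. The mean and the range come from the same libraries. A gene that is very high in 1 library can therefore enter the upper group because it varies. Of the variable genes, 147 reached 50 CPM in 1 library only and had to differ to pass the filter, while 374 had 50 CPM in every library.

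The variation was unevenly divided over the libraries. The lowest value of a variable gene was in WT H4 replicate 1 for 509 genes, in WT H4 replicate 2 for 275 and in WT H3 for 75, and the highest was in WT H4 replicate 1 for 348 genes, in WT H4 replicate 2 for 295 and in WT H3 for 216. Without WT H4 replicate 1, 11 genes were variable and 2589 stable, against 785 and 974 without WT H3. Without WT H4 replicate 2, 670 genes were variable and 1071 stable.

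The same was seen pair by pair. WT H4 replicate 1 was past 4-fold higher than WT H4 replicate 2 in 321 genes (9.04% of the 3552) and past 4-fold lower in 464 (13.1%), although both libraries carried the same strain label. Against WT H3, it was past 4-fold higher in 248 genes (6.98%) and lower in 422 (11.9%). WT H4 replicate 2 was past 4-fold higher than WT H3 in 2 genes (0.0563%) and lower in 9 (0.253%). With upper quartile scaling, the first comparison gave 391 higher and 369 lower, and the second 309 and 359; with total counts only, the first gave 269 and 537. Spearman correlations of log2 CPM across these genes were 0.217 between the WT H4 replicates, 0.314 between WT H4 replicate 1 and WT H3, and 0.924 between WT H4 replicate 2 and WT H3. The replicate pairs of H4K16Q and H4H18A, measured over the same genes, had 0.798 and 0.682, and 5.88% and 8.31% of genes past 4-fold. Each wild-type pair differed beyond sampling noise, so that none was a repeat of the same library, and with 1 library on each side these ratios have no replicate error.

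**Figure D2:**
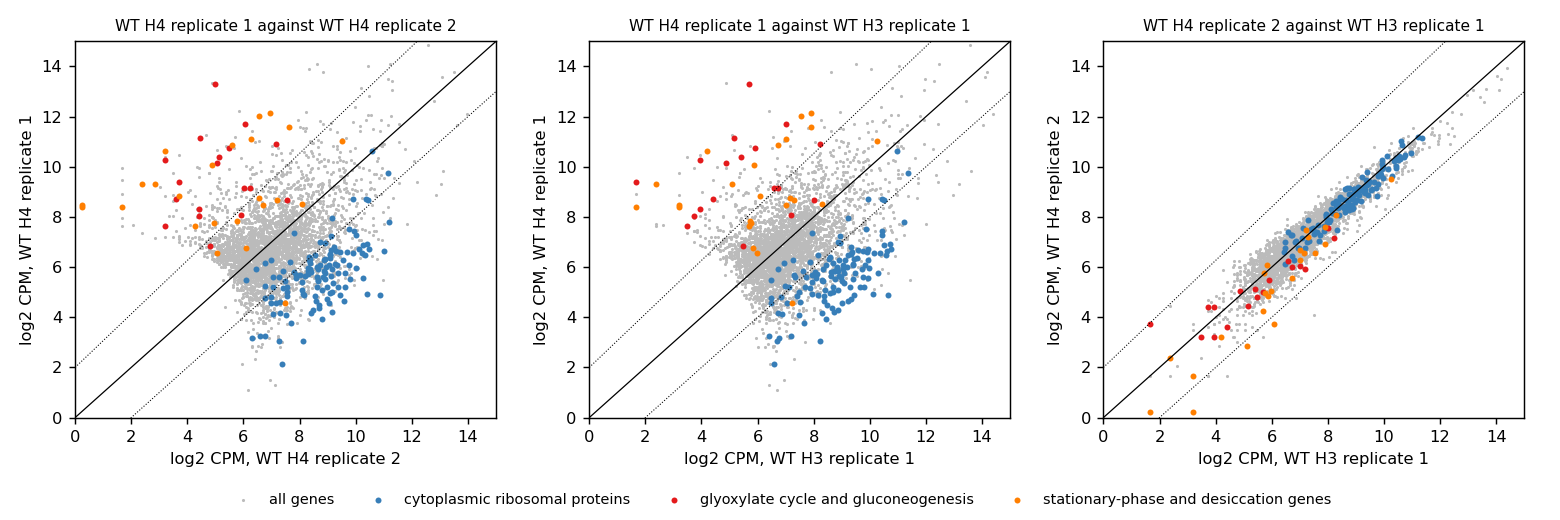
log2 CPM of 3552 genes in each pair of wild-type libraries, 1 point a gene; the solid line marks equality and the dotted lines a 4-fold difference. Most ribosomal protein genes lie below and the glyoxylate cycle genes above the line in both panels with WT H4 replicate 1, whereas in the panel of WT H4 replicate 2 against WT H3 both lie near the line.

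The 15 genes with the largest ranges were all highest in WT H4 replicate 1, where most served respiration, the use of carbon sources other than glucose, or survival without nutrients. All but YAT1 reached 50 CPM in that library only, so that they passed the filter through it and had to differ. HSP30, a plasma membrane heat shock protein that acts on the proton pump Pma1 (YCR021C, chrIII:156109-157107), had 28 counts in WT H3, 31934 in WT H4 replicate 1 and 28 in WT H4 replicate 2, or 28.1, 10339 and 27.9 CPM. It was 371-fold (95% counting interval 256 to 558) higher in WT H4 replicate 1 than in WT H4 replicate 2. PMA1 itself went the opposite way, with 9253, 642 and 8515 CPM, 13.3-fold lower in WT H4 replicate 1 than in WT H4 replicate 2.

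YAT1, the carnitine acetyltransferase of the outer mitochondrial membrane that takes part in moving acetyl groups, had 50, 31271 and 31 counts, and 50.3, 10124 and 30.9 CPM. ACS1, the acetyl-CoA synthetase repressed by glucose, had 34.2, 2238 and 20.9 CPM. MLS1, the malate synthase of the glyoxylate cycle, had 2, 2096 and 12 counts, a ratio of 338 (95% counting interval 93.3 to 2789) between WT H4 replicate 1 and WT H3. These enzymes of acetyl-CoA use were thus low in both WT H3 and WT H4 replicate 2. PCK1, phosphoenolpyruvate carboxykinase, had 14.1, 1245 and 7.97 CPM, and POT1, the thiolase of fatty acid oxidation, had 20, 2181 and 2 counts. MPC3, a subunit of the mitochondrial pyruvate carrier, had 8, 1041 and 2 counts.

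SIP18, a hydrophilin of desiccated cells, had 8, 1083 and 0 counts, at least 117-fold higher in WT H4 replicate 1 than in WT H4 replicate 2 when 3 counts were set as the floor of a library. SPG1, named for survival in stationary phase, had 2, 1038 and 0 counts, at least 112-fold higher by the same floor, and SPG4 had 4, 1974 and 4. GRE1, a hydrophilin of the osmotic stress response, had 17.1, 1586 and 7.97 CPM. These stationary-phase genes were thus low in both other libraries, as their selection by level and range required. RGI2, of respiratory growth, had 2, 1496 and 2 counts, SPS100, a spore wall gene, 14, 4437 and 12, and the neighbours YNL194C and YNL195C 10, 4168 and 8, and 12, 3043 and 2. SPS100 overlaps an antisense transcript, SUT169, over 946 bases, and the strand setting of the counting is not given in the sources used here.

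The 15 genes with the smallest ranges were of middling level. TYR1, prephenate dehydrogenase of tyrosine synthesis (YBR166C, chrII:569842-571200), had 80, 246 and 80 counts, or 80.4, 79.6 and 79.7 CPM, a range of 0.01. CAB3, of coenzyme A synthesis, had 154, 153 and 151 CPM, and GLC7, the catalytic subunit of protein phosphatase 1, had 225, 225 and 220 CPM. No library stood apart in these genes, as their selection by range required. TOK1, the outward potassium channel, INO2, an activator of phospholipid synthesis, ABD1, the mRNA cap methyltransferase, ASH1, the repressor of mating-type switching, and GPD2, a glycerol-3-phosphate dehydrogenase, had ranges of 0.03, 0.04, 0.04, 0.05 and 0.07. The remaining members were OXP1, GUP1, PTM1, LDO16, FUN14, SRO7 and ADH5, all with ranges of 0.07 or less. LDO16 lies within LDO45 on the same strand, over 447 bases, so that reads of LDO45 could be counted in it. Counting error alone makes such ranges uncertain, because 80 counts lay behind the value of TYR1 in WT H3. Which genes were stable also depended on the scaling. Of the 643 stable genes, 486 were also stable with total counts only, 486 with upper quartile scaling and 635 with RLE scaling.

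**Figure D3:**
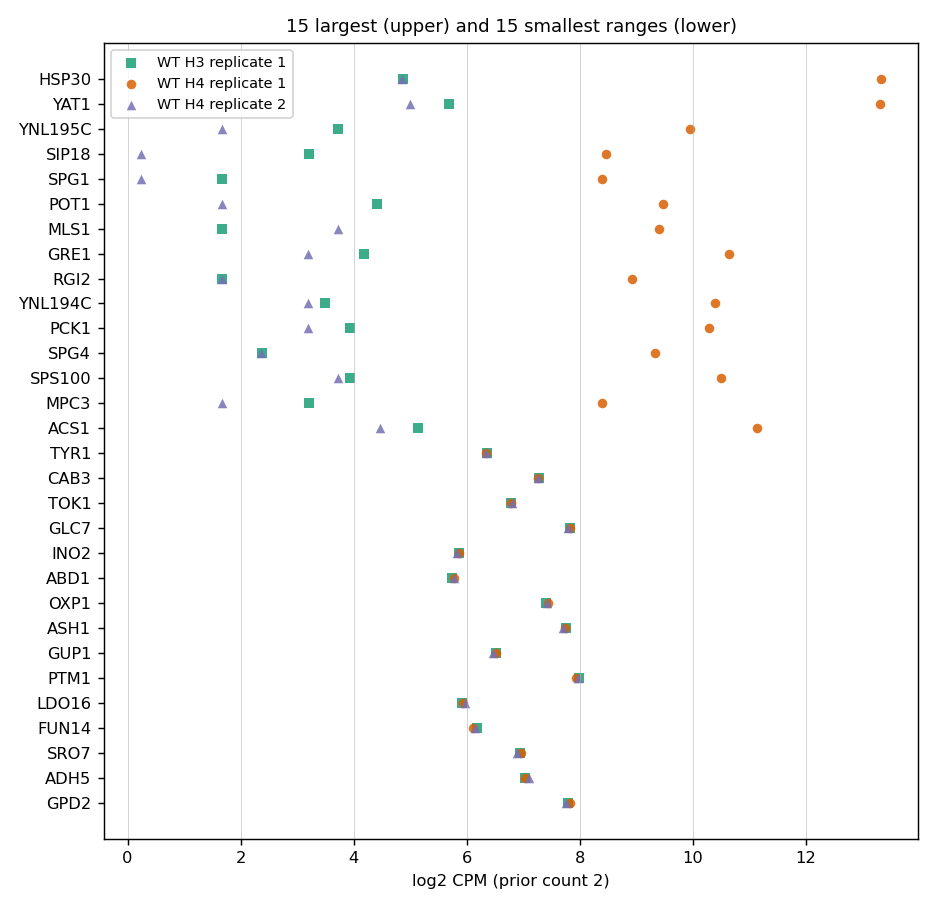
log2 CPM (prior count 2) of the 15 genes with the largest and the 15 with the smallest ranges, 1 symbol a library. In the upper rows WT H4 replicate 1 stands alone on the right, and in the lower rows the 3 symbols overlap.

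Upstream regions are shown to print the sites searched for, since sites of glucose-regulated and stress-regulated genes lie there. HSP12 was taken from the abundant genes and SIP18, YAT1, ACS1 and PCK1 from the 15 largest ranges, all chosen after a match was seen, and TYR1 as the gene with the smallest range. Each window holds 300 bases, from 400 to 101 bases before the start codon, 5′ to 3′ on the gene's strand, from the RefSeq R64 genome. Capitals mark the stress response element (STRE, AGGGG, the site of Msn2 and Msn4, or CCCCT on the other strand) and the core of the carbon source response element (CSRE, the site of Cat8 and Sip4, searched on both strands as CC, any base, T, any 4 bases and CCG). The windows were those of HSP12 (chrVI:106856-107155, plus strand), SIP18 (chrXIII:610616-610915, plus strand), YAT1 (chrI:189793-190092, plus strand), ACS1 (chrI:45123-45422, minus strand), PCK1 (chrXI:630752-631051, plus strand) and TYR1 (chrII:571301-571600, minus strand).
HSP12: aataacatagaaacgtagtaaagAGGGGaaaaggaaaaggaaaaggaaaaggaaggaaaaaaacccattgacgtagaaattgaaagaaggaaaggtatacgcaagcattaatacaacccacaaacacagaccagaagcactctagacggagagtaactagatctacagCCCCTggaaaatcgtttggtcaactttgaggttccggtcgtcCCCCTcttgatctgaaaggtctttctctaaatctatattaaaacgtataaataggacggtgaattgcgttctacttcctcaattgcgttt
SIP18: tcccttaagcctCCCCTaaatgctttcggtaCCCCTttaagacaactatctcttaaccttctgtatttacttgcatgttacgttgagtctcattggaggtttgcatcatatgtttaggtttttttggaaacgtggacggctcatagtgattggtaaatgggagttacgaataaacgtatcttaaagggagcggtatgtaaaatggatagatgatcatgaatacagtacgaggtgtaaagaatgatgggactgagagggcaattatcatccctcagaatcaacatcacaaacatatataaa
YAT1: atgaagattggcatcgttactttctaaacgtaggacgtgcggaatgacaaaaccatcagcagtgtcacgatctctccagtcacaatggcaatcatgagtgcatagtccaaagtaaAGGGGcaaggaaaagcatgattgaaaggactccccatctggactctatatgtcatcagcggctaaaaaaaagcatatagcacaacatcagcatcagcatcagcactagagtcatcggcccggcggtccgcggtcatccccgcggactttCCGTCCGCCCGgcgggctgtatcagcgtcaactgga
ACS1: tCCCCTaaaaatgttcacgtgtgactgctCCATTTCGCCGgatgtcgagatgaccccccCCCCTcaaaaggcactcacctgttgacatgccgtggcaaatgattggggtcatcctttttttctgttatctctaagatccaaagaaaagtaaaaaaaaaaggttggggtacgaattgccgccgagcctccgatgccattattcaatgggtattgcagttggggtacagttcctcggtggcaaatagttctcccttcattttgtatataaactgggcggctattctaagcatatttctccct
PCK1: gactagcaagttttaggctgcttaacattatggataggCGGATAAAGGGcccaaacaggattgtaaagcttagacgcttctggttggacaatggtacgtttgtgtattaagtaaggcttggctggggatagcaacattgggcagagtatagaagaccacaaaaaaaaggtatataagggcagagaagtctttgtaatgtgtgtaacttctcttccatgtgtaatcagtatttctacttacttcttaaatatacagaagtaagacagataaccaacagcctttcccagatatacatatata
TYR1: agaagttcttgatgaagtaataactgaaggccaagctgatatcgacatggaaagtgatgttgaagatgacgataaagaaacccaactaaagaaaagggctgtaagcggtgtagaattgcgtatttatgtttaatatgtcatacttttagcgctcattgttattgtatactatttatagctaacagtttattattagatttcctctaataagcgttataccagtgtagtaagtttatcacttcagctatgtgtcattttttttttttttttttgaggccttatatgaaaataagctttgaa

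The HSP12 window held 3 STRE matches and that of SIP18 held 2. ACS1 had 2 STRE matches and 1 CSRE core, YAT1 had 1 of each, and PCK1 had 1 CSRE core. The window of TYR1 had neither. Of the 15 genes with the largest ranges, 40% held an STRE and 26.67% a CSRE core, and HSP30, POT1, SPG1, SPG4, MLS1, GRE1 and YNL195C held neither. Of the 15 with the smallest ranges, 20% held an STRE and none a CSRE core. A match is a run of letters and not a measured binding site, and windows can reach into a neighbouring gene.

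Over all 6007 windows of the annotation, 23.6% held an STRE. The share was 23.2% among the 643 stable genes and 32.2% among the 853 variable genes with a window. It was 55.3% among the 342 variable genes that were highest in WT H4 replicate 1, 18.1% among the 216 highest in WT H3 and 15.9% among the 295 highest in WT H4 replicate 2. The CSRE core was in 5.03% of all windows and in 11.99% of those of the variable genes highest in WT H4 replicate 1. The PAC core (GATGAG, or CTCATC on the other strand), found before ribosome assembly genes, was in 18.4% of all windows, 36.6% of those of the variable genes highest in WT H4 replicate 2 and 15.2% of those highest in WT H4 replicate 1. A TATA box (TATAAA, or TTTATA) was in 43.8% of all windows and 42.6% of those of variable genes. These shares are descriptions, with no test.

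**Figure D4:**
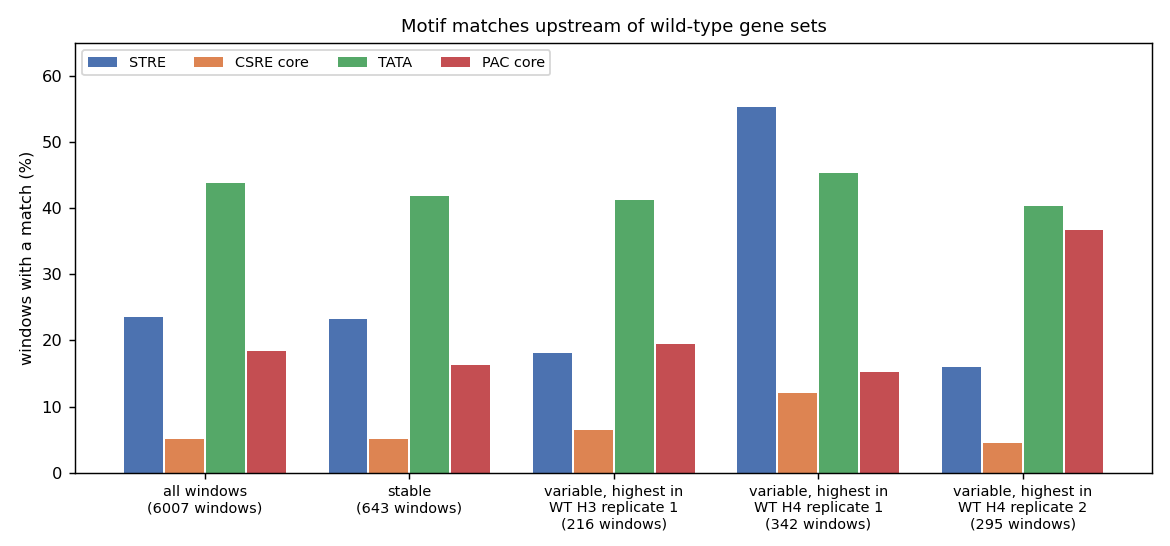
Share of upstream windows with at least 1 match, for 4 motifs, in all windows, in stable genes and in variable genes by the library with the highest value. STRE reaches 55.3% in variable genes highest in WT H4 replicate 1, and the PAC core 36.6% in those highest in WT H4 replicate 2.

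The gene lists described next were written from yeast biology, and each is read beside all 3552 genes. Counts and medians of a list are over its members with a mean of at least 50 CPM, some of which passed through a single high library and had to differ, and the median over all members in the files is added where it differs by over 1.5 times. In the comparison of WT H4 replicate 1 with WT H4 replicate 2, 20.5% of all genes were past 2-fold higher and 30% past 2-fold lower. Against WT H3 the shares were 18.4% and 28.2%, and between WT H4 replicate 2 and WT H3 they were 1.18% and 2.79%. The median log2 ratio of all genes was -0.25, -0.17 and -0.01 in these comparisons, and 0 in each over all 6592 features. With upper quartile scaling it was -0.004, 0.03 and -0.04, and with total counts only it was -0.44, -0.22 and 0.13.

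Cytoplasmic ribosomal proteins held the lowest medians. Of the 127 cytoplasmic ribosomal protein genes measured, 121 were past 2-fold lower in WT H4 replicate 1 than in WT H4 replicate 2 and 121 than in WT H3, with none past 2-fold higher in either comparison, with medians of -2.93 and -3.11, and 108 were variable and 1 stable. Between WT H4 replicate 2 and WT H3 none was past 2-fold, and the median was -0.10, or 0.04 with total counts only. RPS1B, a protein of the small subunit, had 1584, 28.5 and 1859 CPM. It was 65.2-fold lower in WT H4 replicate 1 than in WT H4 replicate 2. RPL4A, of the large subunit, was the stable member, with 2000, 1591 and 1516 CPM, a range of 0.40. Near-identical copies make the division of reads among ribosomal protein genes uncertain.

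The 114 ribosome assembly genes had medians of -2.003 and -1.58 in the same comparisons, and 0.47 between WT H4 replicate 2 and WT H3. MAK16, of the large subunit's assembly, had 201, 13.6 and 319 CPM, and NOP58, of the box C/D snoRNPs, had 251, 14.3 and 312 CPM. Both were lowest in WT H4 replicate 1 and highest in WT H4 replicate 2. NOG2, a GTPase of the same process, was highest in WT H4 replicate 1 instead, at 972, 1725 and 997 CPM. Among the 40 translation factors, the elongation factor YEF3 had 7918, 463 and 7491 CPM, whereas TEF2 had 3541, 4149 and 2455 CPM.

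Biosynthetic genes were lower in WT H4 replicate 1 as well. Of the 22 genes of purine synthesis, 20 were past 2-fold lower than in WT H4 replicate 2 and 19 than in WT H3, with medians of -2.14 and -2.13. ADE17, a transformylase of the last steps, had 1915, 84.8 and 1523 CPM, while its isoenzyme ADE16 had 618, 554 and 578 CPM, a range of 0.16. Of 74 genes of amino acid synthesis, 46 and 47 were past 2-fold lower in the same comparisons and 6 and 6 past 2-fold higher. GLN1, glutamine synthetase, had 2584, 3214 and 2300 CPM, a range of 0.48.

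The glyoxylate cycle and gluconeogenesis list held the highest medians, 4.77 and 4.35. All 18 measured members were past 2-fold higher in WT H4 replicate 1 than in WT H4 replicate 2, and 16 than in WT H3. CIT2, the peroxisomal citrate synthase, had 129, 3347 and 64.7 CPM, and ALD4, the mitochondrial aldehyde dehydrogenase, had 297, 1929 and 141 CPM. Between WT H4 replicate 2 and WT H3 the median was -0.57.

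Mitochondrial metabolism differed by less. Of 26 genes of the tricarboxylic acid cycle, 15 were past 2-fold higher in WT H4 replicate 1 than in WT H4 replicate 2, and of 37 nuclear genes of the respiratory chain and ATP synthase, 24 were. Against WT H3 these counts were 10 and 18. The tricarboxylic acid cycle list had medians of 1.23 and 0.92, and the respiratory chain list 1.49 and 0.99. SDH1, of succinate dehydrogenase, had 490, 2975 and 280 CPM, and QCR2, of the cytochrome bc1 complex, had 593, 1950 and 354 CPM. PYC2, a pyruvate carboxylase, had 1268, 993 and 1224 CPM, a range of 0.35. Mitochondrial ribosomal proteins, in contrast, had medians of 0.18, 0.24 and 0.02, with 9 of 38 stable; the first of these was -0.01 with total counts only, and the last was below 0 with 2 of the scalings tried.

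Hexose transporters divided by type. HXT5, of slowly growing and starved cells, had 84.4, 4781 and 56.8 CPM, whereas HXT4 had 1594, 53.1 and 918 CPM and HXT3, the low-affinity transporter of cells on plentiful glucose, had 2006, 468 and 1640 CPM. The HXT5 level was thus highest, and those of HXT3 and HXT4 lowest, in WT H4 replicate 1. The list medians were 0.56 and 0.17 over the 15 members that passed 50 CPM, and 1.05 and 0.59 over all 24 in the files. Glycolysis took 12.2%, 8.22% and 9.09% of the counts, with medians of -0.33 and -0.75, or -0.19 and -0.59 over all members in the files.

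The stationary-phase and desiccation list had medians of 4.40 and 3.22, with 21 and 19 of 24 genes past 2-fold higher in WT H4 replicate 1. Over all 33 members in the files, low ones included, the medians were 2.20 and 1.95. SPI1, a cell wall protein, had 187, 4152 and 93.6 CPM, and HBT1 had 240, 4560 and 122 CPM. Between WT H4 replicate 2 and WT H3 the median was -0.88, and 8 of 24 were past 2-fold lower. Of 19 genes of trehalose and glycogen, 16 and 14 were past 2-fold higher in WT H4 replicate 1, among them TSL1, of trehalose synthase, at 960, 3476 and 552 CPM. Antioxidant enzymes included both CTT1, the cytosolic catalase, at 66.3, 743 and 33.9 CPM, and TSA1, a peroxiredoxin, at 2061, 1712 and 1599 CPM, a range of 0.37. Heat shock proteins took 2.61%, 7.55% and 2.56% of the counts, but their medians were 0.41 and 0.40, because 12 and 11 of 42 members were past 2-fold lower beside 18 and 17 past 2-fold higher.

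**Figure D5:**
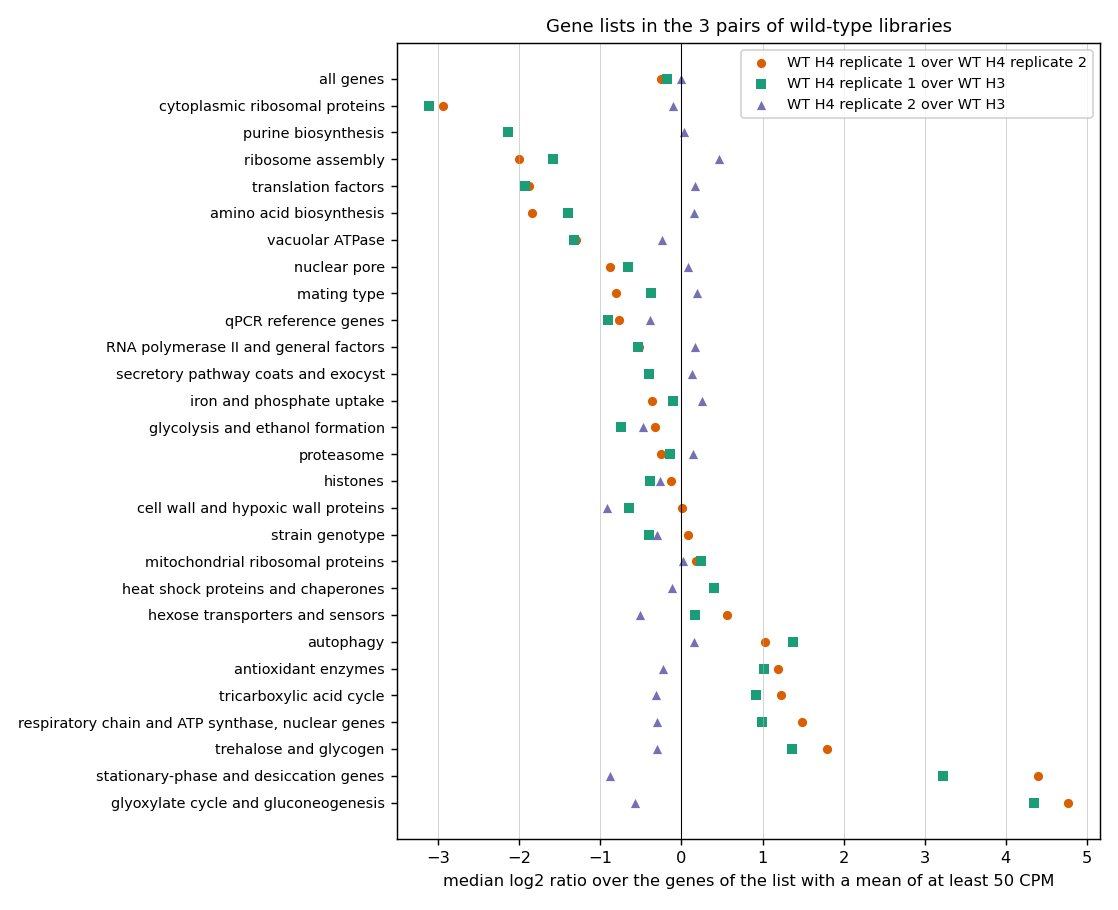
Median log2 ratio of each gene list, over members with a mean of at least 50 CPM, in the 3 pairs of wild-type libraries; all genes are in the top row. Both comparisons with WT H4 replicate 1 run from about -3 for ribosomal proteins to over 4 for the glyoxylate cycle, while WT H4 replicate 2 over WT H3 stays within 1 of 0.

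The proteasome, RNA polymerase II, nuclear pore and secretory lists held fewer variable genes than the 24.2% of all genes, but were not all level. The vacuolar ATPase and autophagy lists did not stand clearly below that share. Of 36 proteasome genes, 13 were stable and 1 variable, with medians of -0.26, -0.13 and 0.15; the second was 0.07 with upper quartile scaling. Of 30 genes of RNA polymerase II and general factors, 9 were stable and 2 variable, with medians of -0.53 and -0.54, and RPO21, the largest subunit, had 1901, 1184 and 1747 CPM. Of 28 nuclear pore genes, 7 were stable and 1 variable, but 12 and 7 were past 2-fold lower in WT H4 replicate 1, with medians of -0.87 and -0.66, while NSP1 had 330, 291 and 345 CPM. Of 24 genes of secretory coats and the exocyst, 8 were stable and 3 variable, with medians of -0.39 and -0.40, and SEC23, of the COPII coat, had 655, 624 and 526 CPM. In the vacuolar ATPase, 9 of its 14 genes were past 2-fold lower in WT H4 replicate 1 than in WT H4 replicate 2, with a median of -1.30, and 4 were variable. VMA1, its catalytic subunit, had 3328, 760 and 2647 CPM. Autophagy genes had medians of 1.03 and 1.37, with ATG19, a receptor of selective autophagy, at 69.4, 331 and 71.7 CPM.

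In the cell wall list, WT H3 was above WT H4 replicate 2. Its median log2 ratio was -0.91 between WT H4 replicate 2 and WT H3, where 9 of 21 genes were past 2-fold lower and none past 2-fold higher. GAS1, a glucan-elongating enzyme of the wall, had 2732, 43.4 and 1988 CPM, and HSP150, a secreted wall protein, had 3857, 3709 and 1918 CPM. TIR1, a mannoprotein of cold and anaerobic cells, had 102, 3 and 70 counts. HSP150 was thus lowest in WT H4 replicate 2, whereas GAS1 and TIR1 were lowest in WT H4 replicate 1. In iron and phosphate uptake, FIT3, a siderophore-binding wall protein, had 96.5, 959 and 73.7 CPM, and PHO84, the high-affinity phosphate transporter, had 199, 104 and 454 counts, or 33.7 CPM in WT H4 replicate 1 and 452 CPM in WT H4 replicate 2. The first was highest and the second lowest in WT H4 replicate 1.

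Of the genes in common use as qPCR references, 12 were measured at a mean of at least 50 CPM. None of these was stable and 4 were variable, beside 18.1% and 24.2% of all genes, a difference that 12 genes are too few to read. ACT1, actin, had 2243, 2906 and 1551 CPM, a range of 0.91, and PGK1 had 5553, 3304 and 2975 CPM, a range of 0.90. PDA1 had a range of 1.15 and was highest in WT H4 replicate 1, while TPI1 had 1.05 and was lowest there. The largest ranges were those of PMA1 at 3.85, UBC6 at 2.84, FBA1 at 2.33 and TUB2 at 2.05. ALG9 had 115, 75.1 and 136 CPM, a range of 0.85. TAF10, at 36.2, 42.1 and 35.9 CPM, and TFC1, at 35.2, 55.04 and 41.8 CPM, were below the filter with ranges of 0.22 and 0.63.

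WT H4 replicate 2 and WT H3, of different strain labels, were the most alike. Over 3545 genes with an annotated coding sequence, their log2 ratio had a Spearman correlation of -0.43 with GC content and 0.17 with coding length. The first correlation was 0.12 and 0.004 for the comparisons of WT H4 replicate 1 with WT H4 replicate 2 and with WT H3. All 11 genes past 4-fold between WT H4 replicate 2 and WT H3 are named here after their values were seen, where other rules did not name them. INO1, inositol-3-phosphate synthase, had 179, 363 and 16 counts, or 180, 118 and 15.9 CPM, and was lowest in WT H4 replicate 2. YRF1-5, a subtelomeric helicase of which near-identical copies exist, had 117, 108 and 25.9 CPM. ALD3 and DDR2, of the stress response, had 66, 1423 and 12 and 33, 1949 and 6 counts. YHR217C, SIP18, POT1, COX26 and YNL195C were also lower in WT H4 replicate 2, all but YHR217C with 20 counts or fewer in both libraries. RRT15, which lies in the ribosomal RNA gene region, and MLS1 were higher, from 4 and 2 counts in WT H3 to 21 and 12.

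The comparison of strain labels, WT H4 minus WT H3, asked whether the strains of these labels gave different transcriptomes. By edgeR's quasi-likelihood test, with 1 residual degree of freedom and with the lone WT H3 library taken to vary like WT H4, 0 of 5651 genes (0%) were called at an adjusted p of 0.05. At an unadjusted p under 0.05 there were 72 of the 5651, of which 70 were higher in WT H4 and 2 lower. DESeq2 called 0, with 88 of 5651 at an unadjusted p under 0.05. Both counts were fewer than this threshold passes by chance alone, so that no direction is read from them. Nor can their direction be traced to 1 library. Dropping either WT H4 library left 1 library on each side, and the spread then came from the mutant libraries. The median log2 difference over the genes tested was 0.082 in the main edgeR fit. It was -0.027 when replicate 1 was dropped and 0.035 when replicate 2 was dropped. The smallest adjusted p of the main edgeR fit was 0.9997. SPG1 had an estimated log2 difference of 6.36 ± 1.82 (SE), and RGI2 of 6.89 ± 2.09, but both rested on WT H4 replicate 1, with 0 and 2 counts in WT H4 replicate 2. HUG1, a target of the DNA damage checkpoint, was the reverse, at 32, 0 and 2 counts, an estimated -5.33 ± 2.36. RCR1 had 101, 20.1 and 39.8 CPM and SGE1 86.4, 18.8 and 35.9 CPM, so that both WT H4 libraries were below WT H3. Since the WT H4 libraries differed from each other by more than WT H4 replicate 2 differed from WT H3, a difference between the strains was not detectable with these libraries.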

How the data were processed

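RNA-seq was performed on total RNA of 16 h cultures. As stated for the study, the authors trimmed reads with Trim Galore, mapped them to R64 with STAR and deposited counts of reads per gene from featureCounts, 1 file a library. Versions and the strand setting of the counting are not given in the sources used here. Deposited tables of the authors' own edgeR comparisons hold fold changes and p-values and were not used.

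The counts of the 3 wild-type libraries were joined by feature, and 8 features were removed: those named after YLR154 with a suffix, and YGL088W. YLR154C, a coding gene, was kept. Of 6600 features, 5917 matched a RefSeq R64 locus tag, and 5913 of those left had a coding length for TPM. CPM and log2 CPM (prior count 2, TMM scaling) were computed with edgeR 4.0.16 in R 4.3.3. A fold between single libraries is a ratio of CPM with an exact 95% counting interval, which covers counting error only. Against 0 counts, a floor of 3 counts (3.02, 0.971 and 2.99 CPM in WT H3, WT H4 replicate 1 and WT H4 replicate 2) gave a lower bound. Ratios of 1 library to 1 have no test. WT H4 and WT H3 were compared by the quasi-likelihood test of edgeR, with p-values adjusted over all genes tested (Benjamini-Hochberg, threshold 0.05). A check on simulated data required calls at a low spread only. It does not show whether genes could be called at the spread of these libraries. DESeq2 1.42.0 was an alternative, and others were RLE, upper quartile and total-count scaling, filters of 20 and 100 CPM, no filter, a prior count of 0.25, thinned counts, the removed features kept, all 8 libraries in the fit, the replicate block and each library left out.

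Named genes were the 20 with the highest mean TPM, the 15 with the largest and the 15 with the smallest range, members of the strain, mating type, qPCR reference and histone lists, the 4 highest and 2 most variable of each other list, and the 5 smallest p-values in each direction of the test, of which the text gives a selection. The libraries, the 28 gene lists and the tests were chosen with earlier results of these data known.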

Additional observations from a re-analysis of the deposited data

How the results depend on the processing

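Fewer than 3 libraries a strain limit these results, and 1 library decided most of them. No gene was called for WT H4 minus WT H3 under any of the fits with all 3 wild-type libraries. WT H3, with 1 library, could not be left out of this test, so that only the WT H4 libraries were. Without WT H4 replicate 2 some genes were called by edgeR, all lower in WT H4. There the lone libraries were assumed to vary like the mutants. With the replicate block over all 8 libraries, 0 genes were called, with a smallest adjusted p of 0.0708. The replicate numbers were not taken to pair the libraries, since no label ties a number to a shared batch and the deviations of same-numbered libraries correlated at 0.180 for WT H4 with H4K16Q, 0.628 for WT H4 with H4H18A and 0.0472 for H4K16Q with H4H18A. The glyoxylate cycle list was nevertheless higher in replicate 1 than in replicate 2 of all 3 strains. Its summed CPM was 22312 against 689 in WT H4, 14120 against 827 in H4H18A and 28262 against 3215 in H4K16Q. Not every list kept the same direction. Cytoplasmic ribosomal proteins were lower in replicate 1 of WT H4, at 9135 against 55318.5, and of H4K16Q, at 82821 against 156537. In H4H18A they were higher in replicate 1, at 83512 against 53962. Leaving out each library gave 974 to 2589 stable and 11 to 785 variable genes, against 643 and 859. Stable genes numbered 354 at a mean of at least 100 CPM. Genes past 4-fold between WT H4 replicate 2 and WT H3 numbered 18 at a mean of at least 20 CPM, and 7 both at 100 CPM and with thinned counts, against 11. The 20 most abundant genes held 22.1% ± 10.3 (SD, n = 3) of TPM, 17.9% to 26.6% when each library was left out, and 66.2% with the removed features kept. The list medians were recomputed under other scalings, another prior count and thinned counts. All 390 values so obtained lay within the spread of the genes of their list, which is too wide for this to be a test. Of them 11 changed sign, all of medians within 0.2 of 0, among them histones at -0.13 and, with upper quartile scaling, 0.12.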
